A study of Mus musculus with 12 samples.

Results

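The STAT transcription factors measured here were Stat2, Stat3, Stat5a, Stat5b and Stat6, chosen by symbol as 5 of the 22915 genes in the deposited table, and each had 1 row. Primary cardiomyocytes of male C57/Bl6 mice aged 12 weeks, with no allele or transgene given in the labels, were kept for 24 h with PBS, with leukemia inhibitory factor of the mouse (mLIF), with mouse oncostatin M (mOSM) or with hlOSM, with 3 RNA-seq libraries for each of the 4 conditions. mLIF acts through the LIF receptor (LIFR) and mOSM through the OSM receptor (OSMR), and hlOSM is a murine OSM carrying the AB loop of the human protein, a change that lets it use both receptors. Recombinant proteins were given at 25 ng/mL per the labels, whereas the authors' published methods state a lower dose. PBS libraries received an equal volume of buffer. The labels do not say whether replicates came from separate animals or cultures, so that p-values measure the spread between these libraries, which may be technical.

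LIFR and OSMR each pair with the shared subunit gp130. Ligand binding brings receptor-bound Janus kinases together, which phosphorylate the receptor tails, and STAT proteins dock there, are phosphorylated on a tyrosine, form dimers and enter the nucleus to bind DNA. In this family STAT3 is the classic effector of gp130 cytokines, STAT5A and STAT5B serve prolactin, growth hormone and many interleukins, STAT2 works with IRF9 downstream of type I interferon, and STAT6 serves interleukin 4 and 13. STAT activity is set by phosphorylation, and the values below are RNA levels, which do not measure it.

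Values are normalized counts that the authors rounded to whole numbers, with library totals from 2745748 to 2911891. The number of reads behind each library's values is not given in the sources used here, so no counting interval was given. In RNA of a whole dish, fewer cells of a type and less RNA per cell cannot be told apart. Tests were run with limma on log2(normalized count + 1), a scale that understates changes of low genes, and p-values were Benjamini-Hochberg adjusted over the 13184 genes that passed the filter on low values. All 5 STAT genes passed it, and their mean levels were far above the filter in every condition. The 3 comparisons with PBS share the same PBS libraries.

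Stat3 RNA rose with all 3 cytokines, with the mLIF call the least secure. Stat5a rose with mOSM and hlOSM, and Stat5b fell with mOSM. Stat2 and Stat6 did not pass the threshold in any comparison. With mLIF 1 STAT gene was raised and 0 lowered, against a background of 5.47% of all tested genes raised and 4.44% lowered. With mOSM 2 were raised and 1 lowered, where 15.4% of all genes were raised and 15.8% lowered. With hlOSM 2 were raised and 0 lowered, where 18.2% were raised and 19.8% lowered.

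**Figure D1:**
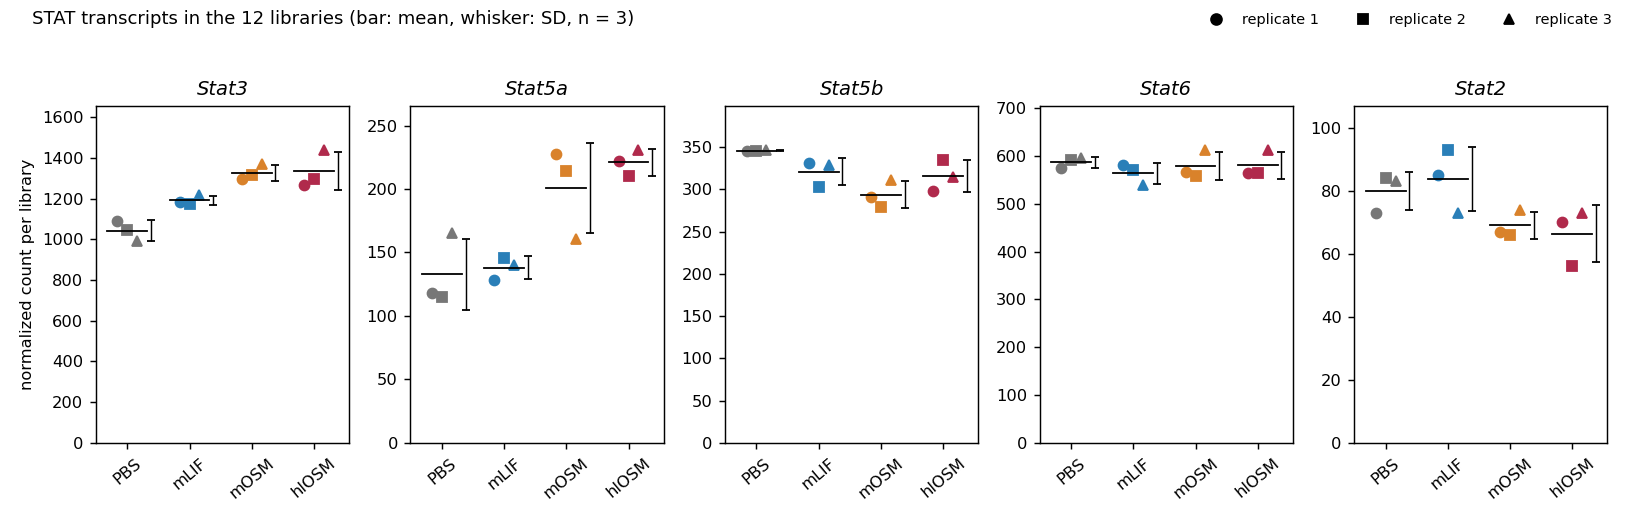
Normalized counts of the 5 STAT genes (vertical axes, linear, 1 panel per gene) in the 3 libraries of each condition (horizontal axis), with points for libraries, lines for means and whiskers for the SD. The lowest Stat3 value with any cytokine, 1173, lies above the highest PBS value, 1092, whereas the Stat2 and Stat6 values of the conditions overlap.

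Stat3 (ENSMUSG00000004040) lies on the minus strand of chr11:100885098-100939540 of mm10, with 9527 exonic bases. Its 3′ end overlaps that of Stat5a, on the other strand, by 72 bases, which are 0.756% of the exonic bases of Stat3 and 1.01% of those of Stat5a. By the authors' counting rule, reads that overlap more than 1 gene were left out. The kit kept the strand, but whether strand was used in counting is not given in the sources used here. Because Stat3 was called with each cytokine against PBS, the 250 bases before its RefSeq start (GRCm38.p6, chr11:100939541-100939790, minus strand, 5′ to 3′) are printed in lower case throughout, as they hold no match to the motifs searched.
Stat3: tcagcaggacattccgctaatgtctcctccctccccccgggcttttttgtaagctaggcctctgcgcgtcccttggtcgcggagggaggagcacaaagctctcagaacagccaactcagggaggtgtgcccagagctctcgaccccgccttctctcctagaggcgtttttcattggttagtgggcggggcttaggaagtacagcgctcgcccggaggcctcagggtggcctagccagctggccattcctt

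The motifs, read on both strands, were TTC and GAA with any 3 bases between them (the form bound by most STAT dimers), TTC and GAA with 4 bases between them (the longer spacing known for STAT6) and GAAA repeated with 2 bases between (the core of the interferon-stimulated response element bound by the STAT2 complex). Among 32851 windows of equal length before RefSeq starts, 7.02%, 5.85% and 2.98% held them. RefSeq gave 7 windows for the 5 STAT genes, and 0 of the 7 held TTC and GAA with 3 bases between, which says only that these letters are not in the windows. Of the 7 windows 3, all of Stat5a or Stat5b, lay partly in annotated exons of the same gene. A match describes letters and is no bound site.

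In the PBS libraries Stat3 had normalized counts of 1092, 1047 and 990. The mLIF libraries had 1183, 1173 and 1217, those given mOSM 1294, 1315 and 1370, and those given hlOSM 1267, 1296 and 1440. The PBS libraries were the lowest, the mLIF libraries came next, and both OSM groups were above all mLIF libraries without overlap, while mOSM and hlOSM overlapped each other. The group means (± SD, n = 3) ran from 1043 ± 51.1 in PBS through 1191 ± 23.1 in mLIF to 1326 ± 39.2 in mOSM and 1334 ± 92.7 in hlOSM libraries.

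The log2 fold change of Stat3 against PBS was 0.35 with mOSM (27.2% higher, limma adjusted p = 3.75e-05) and 0.35 with hlOSM (27.8% higher, limma adjusted p = 2.23e-05). With mLIF it was 0.19 (SE 0.05, 14.3% higher, limma adjusted p = 0.028). This smaller rise depended on single libraries. It lost its call without PBS replicate 2 or 3 and without any 1 of the mLIF replicates, with limma adjusted p between 0.0120 and 0.149 over the 12 fits that left out 1 library. Blocking on replicate number gave it a limma adjusted p of 0.0528 and left 0 STAT genes called with mLIF, where 5.95% of all genes were called. In the exact permutation test over all 15400 arrangements of the 12 libraries in 4 groups, 10 separated Stat3 at least as well as the conditions did (p = 0.000649). Among the 576 arrangements within replicate number, 4 did so (exact permutation p = 0.00694).

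Stat5a (ENSMUSG00000004043, plus strand, chr11:100859351-100885169) and Stat5b (ENSMUSG00000020919, minus strand, chr11:100780731-100850724) lie beside Stat3, with 8626 bases between the pair. Their proteins are close paralogs that respond to many of the same cytokines. Of the 75-base stretches in their annotated transcripts, 387 are shared, 5.12% of those of Stat5a and 6.99% of those of Stat5b, so that few reads of this length could come from either gene. The authors left out reads that aligned to more than 1 place or overlapped more than 1 gene, so that such reads entered neither value.

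In PBS libraries the normalized counts of Stat5a were 118, 115 and 165. The mLIF libraries had 128, 146 and 140, the mOSM libraries 228, 214 and 161, and the hlOSM libraries 222, 210 and 231. All hlOSM libraries were above all PBS and mLIF libraries, and all mOSM libraries were above all mLIF libraries. PBS replicate 3 was the highest of its group and lay above mOSM replicate 3, the lowest of its own, so that mOSM and PBS overlapped in this pair.

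Stat5a rose by 0.60 on the log2 scale with mOSM (SE 0.12, 51.6% higher, limma adjusted p = 0.000613). With hlOSM the rise was 0.75 (68.3% higher, limma adjusted p = 4.09e-05), the largest log2 fold change of any STAT gene in the 3 comparisons with PBS. With mLIF the log2 difference was 0.07, which did not pass (limma adjusted p = 0.748). The exact permutation test over the 4 conditions gave p = 0.0126, from 194 of the 15400 arrangements. Permuting within replicate number only, 31 of 576 arrangements separated it as well (exact p = 0.0538).

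Stat5b had lower means with each cytokine than with PBS, and the difference with mOSM passed the test. Its normalized counts were 345, 346 and 347 in the PBS libraries, 331, 303 and 329 in mLIF, 291, 279 and 311 in mOSM, and 298, 335 and 315 in hlOSM libraries. Every cytokine library lay below the lowest PBS library, and the 3 cytokine groups overlapped one another. The PBS libraries differed by an SD of 1.00 only, far less than the SD of 15.6 to 18.5 in the other groups, and the limma test pools the spread of all 4 conditions.

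Stat5b fell by 0.24 on the log2 scale with mOSM (SE 0.06, limma adjusted p = 0.00722). The log2 difference was −0.11 with mLIF (limma adjusted p = 0.30) and −0.13 with hlOSM (limma adjusted p = 0.114), neither past the threshold. Over the 4 conditions the limma F test gave an adjusted p of 0.0403, and the exact permutation test gave p = 0.0208 (0.0382 within replicate number). Of all tested genes 34.2% passed the F test, as did 3 of the 5 STAT genes (Stat3, Stat5a and Stat5b). Blocking on replicate number brought the F test of Stat5b to a limma adjusted p of 0.0962 and left 2 STAT genes, where 26.1% of all genes passed. Without the filter on low values its F test also missed the threshold (limma adjusted p = 0.0615). It passed in 5 of 12 fits that left out 1 library (limma adjusted p 0.0176 to 0.127), and was lost without any 1 of the PBS libraries, mLIF replicates 1 and 3 or mOSM replicates 1 and 2.

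**Figure D2:**
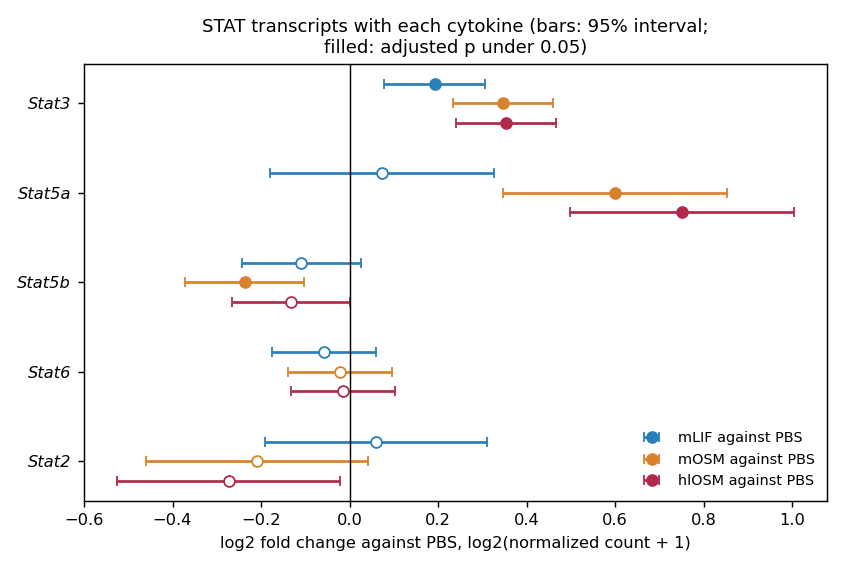
Log2 fold change against PBS (horizontal axis, points with 95% intervals, filled where the limma adjusted p was under 0.05) of the 5 STAT genes with mLIF, mOSM and hlOSM. Stat3 and Stat5a are right of 0 with both OSMs, Stat5b is left of 0 with mOSM (−0.24), and the intervals of Stat6 include 0 with every cytokine.

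The balance of the STAT5 pair was taken within each library as the log2 ratio of Stat5a to Stat5b (each value + 1), on which the scaling of a library has almost no bearing. It was −1.54, −1.58 and −1.07 in the PBS libraries, −1.36, −1.05 and −1.23 in mLIF, −0.35, −0.38 and −0.95 in mOSM, and −0.42, −0.67 and −0.45 in hlOSM libraries. Stat5a was the lower of the pair in all 12 libraries, and all libraries of both OSM groups lay above all those of PBS and mLIF.

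The mean ratio differed from PBS by 0.84 with mOSM and by 0.88 with hlOSM, and by 0.18 with mLIF. The exact permutation test gave p = 0.1 for each OSM, the smallest p that 3 libraries against 3 allow, and p = 0.3 for mLIF. Over the 4 conditions together 120 of the 15400 arrangements separated this ratio as well, an exact permutation p of 0.00779. Among the 576 arrangements within replicate number, 15 did so (exact permutation p = 0.0260). Counted per kilobase of exon, Stat5a made up 22.8% ± 3.60 (SD, n = 3) of Stat5 RNA in PBS libraries. This share was 25.1% ± 2.08 after mLIF, 34.6% ± 5.15 after mOSM and 35.2% ± 2.16 after hlOSM. The sum of both normalized counts was 461 to 512 in PBS, 449 to 469 in mLIF, 472 to 519 in mOSM and 520 to 546 in hlOSM libraries. By this sum hlOSM alone lay above all PBS libraries. Counted per kilobase, the sum was 78.6 to 85.8 in PBS and 84.9 to 89.9 in hlOSM libraries, which overlapped.

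**Figure D3:**
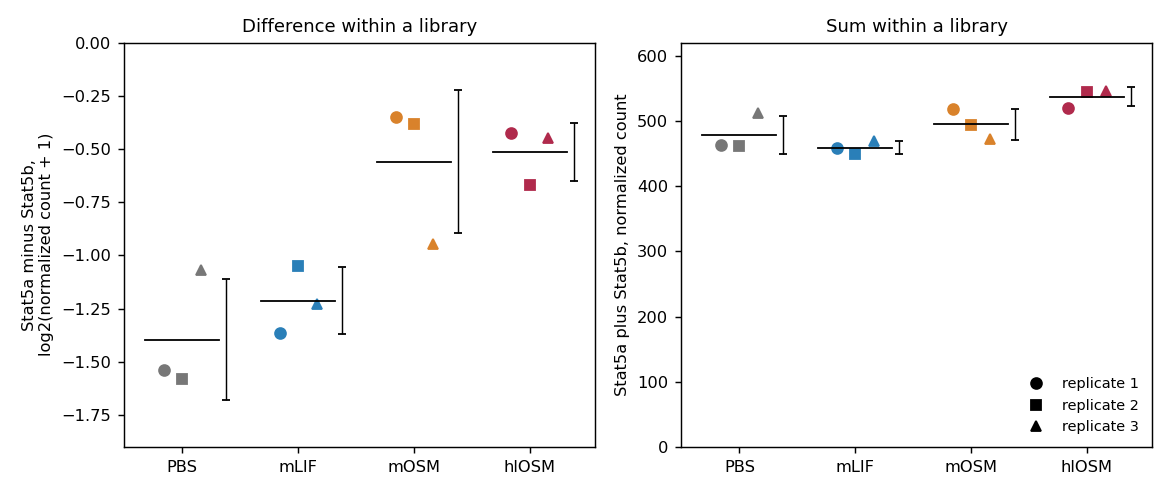
Left, Stat5a minus Stat5b on the log2(normalized count + 1) scale, and right, the sum of both normalized counts, by condition, with points for libraries, lines for means and whiskers for the SD (n = 3). The differences of the 6 libraries with an OSM lie between −0.95 and −0.35, above those of the other libraries, which lie between −1.58 and −1.05.

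Stat2 (ENSMUSG00000040033, plus strand, chr10:128270559-128292849) encodes the STAT with the most restricted use, the interferon complex with IRF9. The window before its RefSeq start is printed because it was the only one of the 7 with a match to the motifs searched (GRCm38.p6, chr10:128270248-128270497, plus strand, 5′ to 3′). Capitals mark TTTCAGTTTC, a match to the interferon response core on the other strand, and TTCCCTAGAA, a match to the motif with 4 bases between, which do not overlap.
Stat2: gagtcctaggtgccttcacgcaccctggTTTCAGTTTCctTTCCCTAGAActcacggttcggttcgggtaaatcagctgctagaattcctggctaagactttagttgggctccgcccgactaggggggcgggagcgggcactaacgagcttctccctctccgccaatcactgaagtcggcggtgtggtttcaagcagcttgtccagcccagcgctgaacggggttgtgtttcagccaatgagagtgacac

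The normalized counts of Stat2 were 73, 84 and 83 in PBS, 85, 93 and 73 in mLIF, 67, 66 and 74 in mOSM, and 70, 56 and 73 in hlOSM libraries. Both OSM groups had lower means than PBS and mLIF, but each pair of groups overlapped. The log2 difference from PBS was −0.27 with hlOSM (SE 0.12, unadjusted p = 0.0346, limma adjusted p = 0.08) and −0.21 with mOSM (limma adjusted p = 0.202), neither past the threshold. With mLIF it was 0.06 (limma adjusted p = 0.803). The largest Stat2 difference was that of hlOSM against mLIF, −0.33 (unadjusted p = 0.0118, limma adjusted p = 0.0647), which passed without mLIF replicate 3 (limma adjusted p = 0.0349) and without hlOSM replicate 3, 2 of the 12 fits that left out 1 library. Without mLIF replicate 3 the F test of Stat2 passed as well (limma adjusted p = 0.0437). With all 12 libraries the exact permutation test over the 4 conditions gave p = 0.0747.

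Stat6 (ENSMUSG00000002147, plus strand, chr10:127642986-127660957) had normalized counts of 574, 591 and 595 in PBS, 582, 570 and 539 in mLIF, 567, 557 and 612 in mOSM, and 565, 564 and 613 in hlOSM libraries. The 4 groups overlapped throughout. The 95% interval of its log2 difference from PBS was −0.18 to 0.06 for mLIF, −0.14 to 0.10 for mOSM and −0.13 to 0.10 for hlOSM. The exact permutation test gave p = 0.669. Of its exonic bases 40 (0.909%) overlap those of Nab2 on the other strand.

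Between the cytokines, Stat5a was higher with mOSM than with mLIF by 0.53 (log2, limma adjusted p = 0.00505), the 1 STAT gene raised there, where 6.05% of all genes were raised and 5.76% lowered. With hlOSM against mLIF, Stat5a was higher by 0.68 (limma adjusted p = 0.000367). Stat3 was higher by 0.16 in that comparison (limma adjusted p = 0.0455), and these 2 were the STAT genes raised there, with 0 lowered, where 7.42% of all genes were raised and 9.22% lowered. The call of Stat3 was lost on leaving out any 1 of PBS replicates 1 and 2, mLIF replicates 1 to 3 and hlOSM replicates 2 and 3, with limma adjusted p between 0.0271 and 0.210 over the 12 fits. It was also lost on blocking by replicate number (limma adjusted p = 0.078), which left 1 STAT gene, where 12.2% of all genes were called. For mOSM against mLIF the log2 difference of Stat3 was 0.15 (limma adjusted p = 0.0712), not past the threshold.

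hlOSM and mOSM differ by the exchanged loop and were given at the same dose and time. No STAT gene passed the threshold between them, where 0.106% of all genes did. The 95% interval of the log2 difference, hlOSM minus mOSM, was −0.11 to 0.12 for Stat3, −0.10 to 0.40 for Stat5a, −0.03 to 0.24 for Stat5b, −0.31 to 0.19 for Stat2 and −0.11 to 0.12 for Stat6. The intervals of Stat5a and Stat2 were the widest, and missing the threshold does not show that the proteins act alike.

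Whether hlOSM minus mOSM differed from mLIF minus PBS was tested as an interaction, which 0.167% of all genes passed. None of the STAT genes did by limma, although 2 had an unadjusted p under 0.05. The interaction was −0.19 on the log2 scale for Stat3 (unadjusted p = 0.0255, limma adjusted p = 0.357) and 0.21 for Stat5b (unadjusted p = 0.0288, limma adjusted p = 0.368).

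Groups that did not overlap were counted without a model. Stat3 was higher than PBS in all libraries of each cytokine and Stat5b lower, which makes 1 STAT gene of 5 in each direction with mLIF, where 14.7% and 15.6% of all genes did so. With mOSM it was again 1 in each direction, against 20.2% and 19.9%. With hlOSM 2 were higher (Stat3 and Stat5a) and 1 lower, against 22.7% and 24.3%. Compared with mLIF, the same 2 genes were higher and 0 lower in both OSM groups, where 12.9% of all genes were higher and 14.1% lower with mOSM and 14.6% higher and 17.1% lower with hlOSM. Between hlOSM and mOSM 0 STAT genes were free of overlap, where 9.74% of all genes were.

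Per kilobase of exon, Stat6 and Stat3 had the highest levels of the family, with means over the 12 libraries of 131 and 128 normalized counts per kilobase, at percentiles 94.4 and 94.0 of 13177 genes. Stat5b followed with 57.6, Stat5a with 24.3 and Stat2 with 12.6 (percentiles 77.4, 50.3 and 32.2). The order Stat5b, Stat5a, Stat2 below the leading pair held in 12 of 12 libraries. Stat3 and Stat6 exchanged places, Stat3 being first in 7 libraries and Stat6 in 5. With PBS the mean per kilobase was 133 for Stat6 and 109 for Stat3, and with hlOSM it was 132 and 140.

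Likeness to other genes was measured as Pearson's r of log2 values over the 12 libraries among 6551 genes, and since these points share libraries and conditions it is a description. The genes most like Stat3 were Cerk (r = 0.993), Osmr (r = 0.991), which encodes the OSM receptor, and Rnd1 (r = 0.988). For Stat2 the highest was Ddx58 (r = 0.958), which encodes the RNA sensor RIG-I, followed by Ginm1 (0.900) and Rasl11b (0.893). Stat5a was most like Noct (0.968), Itga1 (0.950) and Pfkfb3 (0.945), Stat5b like 2610008E11Rik (0.927), Sestd1 (0.918) and Cc2d1b (0.912), and Stat6 like Tmem30a (0.922), Pdcl (0.909) and Pgk1 (0.900).

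Upstream of the STATs, the 4 Janus kinases differed among themselves. Jak3, the partner of the common gamma chain, rose with mLIF, mOSM and hlOSM (log2 0.63, 1.00 and 1.30), from a low mean of 18.7 normalized counts with PBS, and its mLIF call was lost without PBS replicate 2. Jak2, the kinase of growth hormone and prolactin receptors, was at 432 with PBS and 433 with mLIF and rose with mOSM to 605 (log2 0.49) and with hlOSM to 594 (log2 0.46). Jak1 and Tyk2 did not pass with any cytokine, with log2 differences from −0.01 to 0.03 for Jak1 and from −0.24 to −0.11 for Tyk2. The counts of the lists that follow are to be read against all genes tested. Of these mLIF raised 5.47% and lowered 4.44%, mOSM raised 15.4% and lowered 15.8%, and hlOSM raised 18.2% and lowered 19.8%. The lists were chosen with earlier results of these data known, so their counts and medians are descriptions and no independent test. Some listed genes passed the filter on low values only through the conditions where they were high, which favored a call in that direction. Among 15 receptors tested upstream of STATs, 2 were raised and 1 lowered with mLIF and 4 raised and 4 lowered with each OSM, where blocking by replicate number left 3 lowered with each. Without PBS replicate 3, 2 were lowered with mOSM, and the 1 lowered with mLIF became 0 without PBS replicate 1 or mLIF replicate 3 and 2 without PBS replicate 2 or mOSM replicate 2. Il4ra, the receptor chain ahead of STAT6, rose by 0.44, 1.73 and 1.78 with mLIF, mOSM and hlOSM, and Prlr, the prolactin receptor ahead of STAT5, fell (log2 −0.57, −1.52 and −2.03). Osmr itself rose by 0.60, 0.96 and 1.07, and Il13ra1, a chain of the interleukin 13 receptor, rose with mOSM and hlOSM (0.34 and 0.35).

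Of 18 inhibitors of JAK-STAT signaling tested, mLIF raised 1 and lowered 0, mOSM raised 3 and lowered 1, and hlOSM raised 4 and lowered 4. The 4 lowered became 2 without PBS replicate 3 and 1 without hlOSM replicate 2, and the 1 lowered with mOSM became 2 without hlOSM replicate 3. Socs3, the feedback inhibitor of gp130 that STAT3 induces, rose by 1.00, 2.09 and 2.17, and Ptpn1, a phosphatase of Janus kinases, rose by 0.44 with mOSM and 0.33 with hlOSM. Cbl, a ubiquitin ligase, rose by 0.30 and 0.35 with them. Usp18, which blocks the interferon receptor, fell with the same pair (log2 −2.17 and −2.36). Of 14 partners and coactivators, mLIF raised 1 and lowered 0, mOSM raised 2 and lowered 2, and hlOSM raised 2 and lowered 4. The 2 raised became 1 with each OSM on blocking by replicate number, and in most fits that left out 1 library. Bcl3, a coactivator of the NF-kB family, rose by 0.49, 0.97 and 1.04. Jun, a partner of STAT3 at DNA, fell with mOSM and hlOSM (log2 −0.31 and −0.41). Irf9, the DNA-binding partner of STAT2, named after its values were seen, had log2 differences of 0.11, 0.07 and 0.12, none past the threshold.

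The known targets of STAT3, 24 genes tested, had 13 raised and 1 lowered with mLIF, and mOSM raised 18 and lowered 2, while hlOSM raised 17 and lowered 4. Their median log2 fold changes were 0.36, 0.79 and 0.74, where the medians of all genes lay within 0.01 of 0. Serpina3n, an acute phase protease inhibitor, rose by 2.34, 3.39 and 3.49, and Timp1, an inhibitor of matrix metalloproteinases, by 0.73, 1.57 and 1.56. This list too was chosen with earlier results of these data known. The same genes are also targets of other factors, and the lists overlap, with 13 of 140 genes in more than 1 list.

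Targets of STAT5, 15 genes tested, did not follow 1 direction. With mLIF 1 was raised and 0 lowered, mOSM raised 3 and lowered 4, and hlOSM raised 3 and lowered 8 (5 without PBS replicate 3 or hlOSM replicate 2), with medians of −0.02, −0.14 and −0.21. Spp1, encoding osteopontin, rose by 1.80 with mOSM and 1.76 with hlOSM. Gadd45g, the 1 raised with mLIF, rose by 0.37, 0.90 and 0.89 with mLIF, mOSM and hlOSM. Bcl2l1, named after its values were seen, rose by 0.44 with mOSM and 0.48 with hlOSM. Both Gadd45g and Bcl2l1 are also on the list of STAT3 targets and were counted there too. With mOSM and hlOSM Ccnd1, encoding cyclin D1, fell (log2 −1.72 and −1.65), and so did Igf1, the growth factor induced through STAT5 by growth hormone (log2 −0.85 and −1.16). Cish and Socs2, classic STAT5 targets named here after their values were seen, had log2 differences of −0.18 and 0.03 with mOSM, neither past the threshold. With hlOSM Cish fell by 0.27 and Socs2 was at 0.06, not past it.

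The 30 tested interferon targets of the STAT2 complex mostly fell with the OSMs. With mLIF 1 was raised and 1 lowered, and with mOSM and with hlOSM 1 was raised and 22 lowered (22 and 18 on blocking by replicate number), with medians of −0.06, −0.69 and −0.65. Ifit1, an antiviral RNA-binding protein, fell (log2 −2.18 with mOSM and −2.01 with hlOSM), as did Sp100, a nuclear body protein (−1.50 and −1.44), Usp18 and Oasl2 (−1.17 and −1.16). Usp18 went from a mean of 30 normalized counts with PBS to 5.67 with mOSM and 5 with hlOSM. Ifit3b, Cmpk2 and Oas2, named after their values were seen, also had means under 10 with both OSMs. Usp18 and these genes passed the filter on low values only through PBS or mLIF libraries, which favored a lowered call. Sp100 was the 1 gene lowered with mLIF (−0.53), a call lost on blocking by replicate number (limma adjusted p = 0.0618). Leaving out 1 library moved that count with mLIF to between 0 and 3, the highest without PBS replicate 1. The 1 raised gene, named after its values were seen, was Parp9 (0.40, 0.42 and 0.58). Stat2 itself had lower means with both OSMs, which did not pass.

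Of 19 targets of STAT6 written, 13 were in the table analysed here and 8 were tested. Of these 8, mLIF raised 1 and lowered 1, mOSM raised 4 and lowered 1, and hlOSM raised 3 and lowered 3. On blocking by replicate number the lowered genes became 0 with mLIF and 1 with hlOSM. The 1 lowered with mLIF also became 0 without any 1 PBS or mLIF library, the 3 lowered with hlOSM became 1 without PBS replicate 1, and the 4 raised with mOSM became 2 without mOSM replicate 1, while the 1 lowered with mOSM became 2 without PBS replicate 2, mOSM replicate 3 or hlOSM replicate 3. Ccl11, encoding eotaxin, rose from a mean of 6 normalized counts with PBS to 56.3 with mOSM and 59.7 with hlOSM (log2 3.07 and 3.14), and Pparg, a lipid-sensing nuclear receptor, fell (log2 −0.58 and −0.66). Il13ra2 was also called raised with both OSMs, with means of 1 with PBS and with mLIF, 12.3 with mOSM and 10 with hlOSM. Ccl11 and Il13ra2 passed the filter on low values only through OSM libraries. The filter thus favored their raised calls, which are no independent support. Stat6 RNA did not pass in any of these comparisons.

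**Figure D4:**
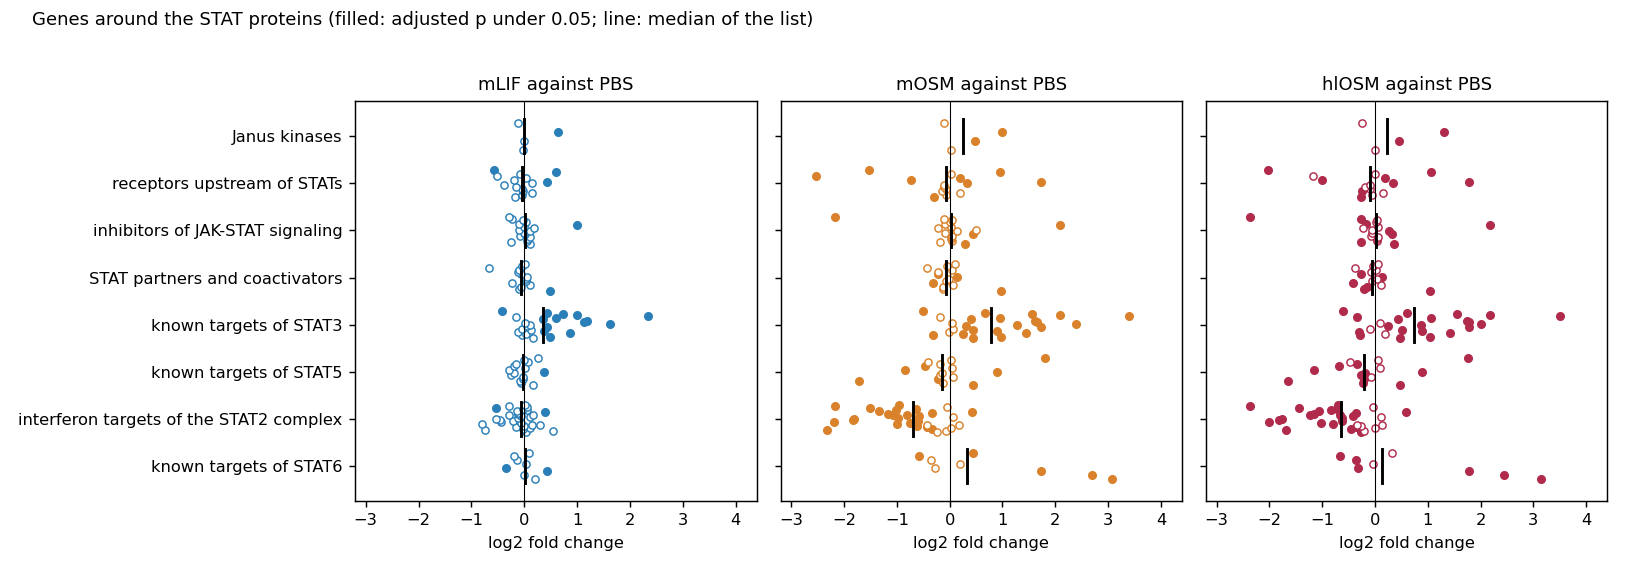
Log2 fold changes against PBS of the genes in each pathway list (points, filled where the limma adjusted p was under 0.05) with the list median as a line, for mLIF, mOSM and hlOSM. The known targets of STAT3 lie mostly above 0 with the OSMs (medians 0.79 and 0.74) and the interferon targets of the STAT2 complex mostly below (−0.69 and −0.65). The lists were chosen with earlier results of these data known.

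The genes beside the STAT loci were read within 100 kb, and their counts are to be read against the shares of all genes given before the lists. Around Stat3, Stat5a and Stat5b, 6 other genes were tested, of which mLIF lowered 1, mOSM lowered 2, and hlOSM lowered 2 and raised 1 (Kat2a, a histone acetyltransferase gene, log2 0.33). Cavin1, a caveolar coat protein gene 17193 bases from Stat3, fell with mLIF, mOSM and hlOSM (log2 −0.26, −0.35 and −0.39), opposite to Stat3. Dhx58, an RNA sensor gene, fell with both OSMs (log2 −2.45 and −1.68), at a low mean of 13.3 normalized counts over all libraries. Around Stat6, 6 were tested and 3 were lowered with mLIF, and 4 lowered and 1 raised with each OSM, among them Nab2, which overlaps Stat6, at −0.29, −0.25 and −0.39. Around Stat2, 8 were tested, with 0 called with mLIF, 1 raised and 1 lowered with mOSM, and 2 raised and 1 lowered with hlOSM.

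Markers of cell types moved with the same conditions. The summed normalized count of 10 cardiomyocyte markers was 54039 to 56424 in PBS and 47391 to 49680 in mLIF libraries. With mOSM it was 39054 to 43783 and with hlOSM 39972 to 42690. Of these 10 markers 6 were lowered with mLIF and 8 with each OSM. The sum of 8 endothelial markers was 1188 to 1262 in PBS, 1201 to 1266 in mLIF, 1471 to 1700 in mOSM and 1477 to 1590 in hlOSM libraries, with 6 raised by each OSM. Fibroblast markers (8 tested) summed to 2296 to 2526 with PBS and 2110 to 2251, 2459 to 2885 and 2307 to 2540 with mLIF, mOSM and hlOSM, with 2 raised and 3 lowered by mOSM and 3 raised and 5 lowered by hlOSM (median log2 fold changes −0.16 and −0.37). The 9 leukocyte markers present, of which 6 were tested, summed to 316 to 339, 293 to 329, 357 to 397 and 332 to 401 in the same order of conditions. Of the 6 tested, 1 was raised and 1 lowered by each OSM. The 8 smooth muscle and pericyte markers, of which 7 were tested, summed to 956 to 1203, 892 to 949, 677 to 731 and 618 to 638. Of the 7 tested, 5 were lowered by mOSM and 6 by hlOSM. By mLIF 1 fibroblast and 1 endothelial marker were lowered and 1 leukocyte marker was raised. Of all tested genes mLIF lowered 4.44% and raised 5.47%, mOSM lowered 15.8% and raised 15.4%, and hlOSM lowered 19.8% and raised 18.2%. No marker was at 0 in every library, and the part of cell mixture in the STAT values was not tested.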

How the data were processed

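Total RNA was sequenced from 12 libraries, 3 for each condition, grouped by the sample titles. Reads were aligned to mm10 with STAR 2.7.7a and counted with featureCounts 1.6.5 per the submitters' processing notes. The authors left out reads that aligned to several places or overlapped several genes. The authors normalized the counts by a method not given in the sources used here and rounded them to whole numbers, so the deposited values are scores on a normalized count scale and no read-count test was used.

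Values were tested on log2(value + 1) with limma 3.58.1 in R 4.3.3 (mean-variance trend, all 4 conditions in 1 fit) over 13184 genes whose value reached 10 in 3 or more libraries. Genes were called at a Benjamini-Hochberg adjusted p under 0.05 (two-sided). Exact permutation tests, two-sided for pairs of groups, and figures were made in Python 3.11.15. Promoters came from RefSeq on GRCm38.p6, and exons from GENCODE annotation of the same build. Named genes were the members, their 3 most alike genes with a mean of at least 100, all Janus kinases, up to 4 genes of each other list with the smallest F-test p, and genes within 100 kb, and others are marked as named after their values were seen. The members and lists were chosen with earlier results of these data known.

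Alternatives were other pseudocounts, filters and scalings, robust moderation, fits of the compared libraries alone, blocking on replicate number, and leaving out each library. In simulated data whose replicate effect had been removed, 180 of 200 changed genes (log2 change 1, mOSM against PBS, 13184 genes) were recovered with 60 false calls without the block, and 174 with 10 false calls with it. No STAT log2 change against PBS was that large, and recovery of smaller changes is not given here. For simulated mLIF against PBS, where no gene was changed, 9.4% of unadjusted limma p lay under 0.05 without the block and 5.1% with it. Nothing was imputed.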

Additional observations from a re-analysis of the deposited data

How the results depend on the processing

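The pairing check found no same-numbered libraries that deviated together. Their deviations from the group means correlated at −0.357 to −0.218, and the replicate number held 1.7% of the variance within conditions, where unrelated numbers hold 25% on average. Values from which a replicate effect has been subtracted have this pattern. Whether the authors subtracted one is not given in the sources used here, and p-values without the block may be too small for this reason. With the replicate block 0 STAT genes were called with mLIF against PBS and 1 with hlOSM against mLIF, and within-number permutation gave Stat5a an exact p of 0.0538. The block changed no other STAT call except the F test of Stat5b. Without a filter on low values 1 was called with hlOSM against mLIF, and with trimmed mean or quantile scaling 2 with mOSM against mLIF. Under quantile normalization Stat6 changed sign against PBS, to 0.0064 with mOSM and 0.0069 with hlOSM.

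Leaving out 1 library at a time gave 0 to 1 calls for mLIF against PBS, 1 to 2 for mOSM against mLIF and 1 to 2 for hlOSM against mLIF. The calls of Stat3 and Stat5a with both OSMs, and of Stat5b with mOSM, passed in 12 of 12 such fits. Exact permutation p over the 4 conditions was 0.0281 to 0.142 for Stat2 and 0.0140 to 0.0614 for Stat5b. These log2 differences changed sign within their ranges: Stat2 −0.019 to 0.15 (mLIF against PBS) and −0.14 to 0.052 (hlOSM against mOSM), Stat3 −0.049 to 0.043 (hlOSM against mOSM), Stat5a −0.018 to 0.24 (mLIF against PBS), −0.00037 to 0.25 (hlOSM against mOSM) and −0.090 to 0.18 (interaction), Stat5b −0.066 to 0.018 (hlOSM against mLIF), and Stat6 −0.062 to 0.0061 (mOSM against PBS), −0.055 to 0.0047 (hlOSM against PBS), −0.034 to 0.046 (hlOSM against mOSM) and −0.0036 to 0.064 (mOSM against mLIF). The cause of these changes was not tested. With the filter at 50, which leaves fewer genes to test, the interferon targets lowered were 10 with mOSM and 11 with hlOSM. How many genes of that list this filter kept is not given here, so these counts cannot be set beside those of the main fit. Read depth per library was not given, so that counting error could not be set apart from the spread between libraries.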
